A study of Mus musculus with 2 samples.

Results

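Accessible chromatin was described at 38 genes of the lysosome, the V-ATPase and the MiT/TFE transcription factors in colonic macrophages with and without Tle4, a Groucho-type corepressor. The members were a fixed list of genes, all 38 of which were found in the mouse RefSeq gene table of 49997 symbols. A peak belonged to a member when it overlapped the gene's annotated span or the 10 kb on either side. This gave 415 of 128737 WT peaks and 402 of 128129 Tle4cKO peaks. The list was divided by the role of the proteins into 6 V0 and 8 V1 subunits of the V-ATPase, 9 cathepsins, 4 hydrolases, 3 lumenal cofactors, 5 membrane proteins and 3 MiT/TFE factors.

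The measurement was ATAC-seq, in which the transposase Tn5 cuts and tags open DNA. Macrophages were sorted from the colon of untreated male C57BL/6 mice aged 18.9 weeks as Siglec-F-negative, Ly6C-low, CD64-positive cells. The WT group carried Lyz2-Cre alone. The Tle4cKO group carried Lyz2-Cre and the Tle4f/f alleles, so Cre, which the Lyz2 locus expresses in myeloid cells generally, was present in both groups. Each group was 1 library made from the pooled cells of 2 mice. No value therefore has a replicate check, and no test between genotypes was possible.

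Lysosomes are acidic compartments in which macrophages digest what they engulf and what autophagy delivers. The V-ATPase acidifies them: its membrane sector V0 forms the proton channel, and its cytosolic sector V1 hydrolyses ATP. TFEB, TFEC and MITF belong to a family of basic helix-loop-helix factors that bind E-boxes, and TFEB binds an extended E-box, the CLEAR motif, at the promoters of many lysosomal genes.

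The pileup of a peak, the authors' value, is the number of overlapping fragments or reads at its summit. It was lower in the Tle4cKO library as a whole, with a median of 20 against 28 in WT, and peaks there were narrower, with a median width of 604 bp against 671 bp. The raw ratio of a pair of overlapping peaks was therefore read against pairs of like summed pileup from the same lists. This relative log2 ratio is 0 where a pair behaves as pairs of its strength do, and positive where Tle4cKO is higher. The cells' identity was checked at marker genes. All 6 macrophage markers with an annotated promoter window, among them Fcgr1, which encodes CD64, had a start-site peak in both lists, with pileups of 95 to 163 in WT and 71 to 137 in Tle4cKO. None of 4 T-cell and none of 2 fibroblast markers had one. Monocyte markers had start-site peaks at 3 of 3 genes in WT and 2 of 3 in Tle4cKO, with summed pileups of 189 and 77, and for neutrophil markers these sums were 68 and 49 over 4 genes. Ccr2 supplied 79 to the WT monocyte sum and 0 to the Tle4cKO sum. Its WT start-site peak overlapped a Tle4cKO peak, but no Tle4cKO peak reached the promoter window. Over the 25 pairs at the monocyte markers the median relative log2 ratio was 0.0. Eosinophil markers summed to 92 and 47 over 3 genes, and dendritic cell markers to 116 and 87 over 3, all of it at Flt3, with no start-site peak at Zbtb46 and Xcr1. For B-cell markers the sums were 46 and 42 over 2 genes, for epithelial markers 36 and 0 over 3, and for the endothelial gene Kdr 61 and 26. The epithelial 36 was all at Epcam. Its WT start-site peak overlapped a Tle4cKO peak, but no Tle4cKO peak reached the promoter window there. The part of such cells in the results was not tested. In sorted but unresolved cells, fewer cells with an open site and less opening per cell cannot be told apart. Tle4 itself had 22 peaks in WT against 14 in Tle4cKO, but where its floxed part lies is not stated in the labels, so this does not check the deletion.

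The promoters of the list were searched for the letters that MiT/TFE factors recognise, because these show which members carry the family's motif in their accessible start sites. RefSeq promoter windows of GRCm38.p6, from 250 bases before to 50 bases after an annotated start, were matched for 31 of 38 members, with 39 windows in all. Atp6v0d2, Atp6v1b2, Atp6v1c1, Atp6v1g1, Atp6v1h, Ctsb and Ctsh had no entry. The CLEAR core TCACGTGA was found in the promoters of 6 members, Atp6v0d1, Atp6v0e, Atp6v1a, Ctsa, Ctsd and Mcoln1. That is 15.4% of the members' windows, beside 0.974% of all 32851 windows and 1.23% of those of protein-coding genes. The longer palindrome, with G before and C after the core, was in none of the members' windows and in 0.326% of all. The shorter E-box CACGTG, which the core contains, was in 25.6% of the members' windows and 7.15% of all, and added Atp6v0b, Ctsl, Glb1 and Lamp1. These motifs read the same on both strands. A match is a description of letters and not a site of binding.

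The following stretches of these promoters show the motif with up to 40 bases on either side, 5′ to 3′ along the gene and ending at most 30 bases after the start. Capitals mark the CLEAR core in the first 6 and CACGTG in the last 3; a further CACGTG in the Mcoln1 stretch is in lower case.
Atp6v0d1 (chr8:105566035-105566108, minus strand): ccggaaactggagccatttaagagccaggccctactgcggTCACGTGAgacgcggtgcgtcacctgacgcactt
Atp6v0e (chr17:26676358-26676425, plus strand): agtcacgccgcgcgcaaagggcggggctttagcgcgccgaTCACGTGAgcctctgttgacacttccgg
Atp6v1a (chr16:44139344-44139431, minus strand): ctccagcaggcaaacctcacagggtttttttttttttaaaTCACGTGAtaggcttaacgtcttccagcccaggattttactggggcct
Ctsa (chr2:164833720-164833802, plus strand): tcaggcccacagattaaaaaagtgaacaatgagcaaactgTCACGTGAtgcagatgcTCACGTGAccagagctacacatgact
Ctsd (chr7:142387879-142387966, minus strand): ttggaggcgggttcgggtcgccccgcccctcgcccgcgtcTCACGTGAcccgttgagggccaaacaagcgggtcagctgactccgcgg
Mcoln1 (chr8:3500433-3500520, plus strand): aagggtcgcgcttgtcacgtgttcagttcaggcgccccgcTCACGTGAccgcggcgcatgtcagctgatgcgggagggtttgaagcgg
Atp6v0b (chr4:117887302-117887405, minus strand): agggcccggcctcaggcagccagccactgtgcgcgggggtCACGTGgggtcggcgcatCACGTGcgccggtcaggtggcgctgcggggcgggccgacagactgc
Glb1 (chr9:114400990-114401075, plus strand): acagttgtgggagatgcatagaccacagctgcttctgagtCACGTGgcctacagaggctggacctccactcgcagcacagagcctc
Lamp1 (chr8:13159060-13159190, plus strand): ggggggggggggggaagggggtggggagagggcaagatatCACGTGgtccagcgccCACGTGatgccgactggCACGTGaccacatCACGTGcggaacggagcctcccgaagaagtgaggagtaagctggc

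The core began 4 bases before the annotated start in Atp6v0d1, at the third base after it in Atp6v0e, and 132, 99 and 46 bases before it in Atp6v1a, Ctsd and Mcoln1. Ctsa, the carboxypeptidase cathepsin A, held the core at 13 bases before and again at the fifth base after its second listed start. Lamp1, which encodes an abundant glycoprotein of the lysosomal membrane, held CACGTG at 4 places, 61, 45, 28 and 15 bases before the start. In every one of these 9 genes and in Ctsl, the window lay inside a single peak in WT and in Tle4cKO. At Atp6v0d1 the peak summit lay 26 bp from the core in WT and 25 bp in Tle4cKO. At Atp6v1a, by contrast, the summit was 1066 and 1095 bp away, further upstream, and that peak also covers the start of the neighbouring gene Naa50.

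**Figure D1:**
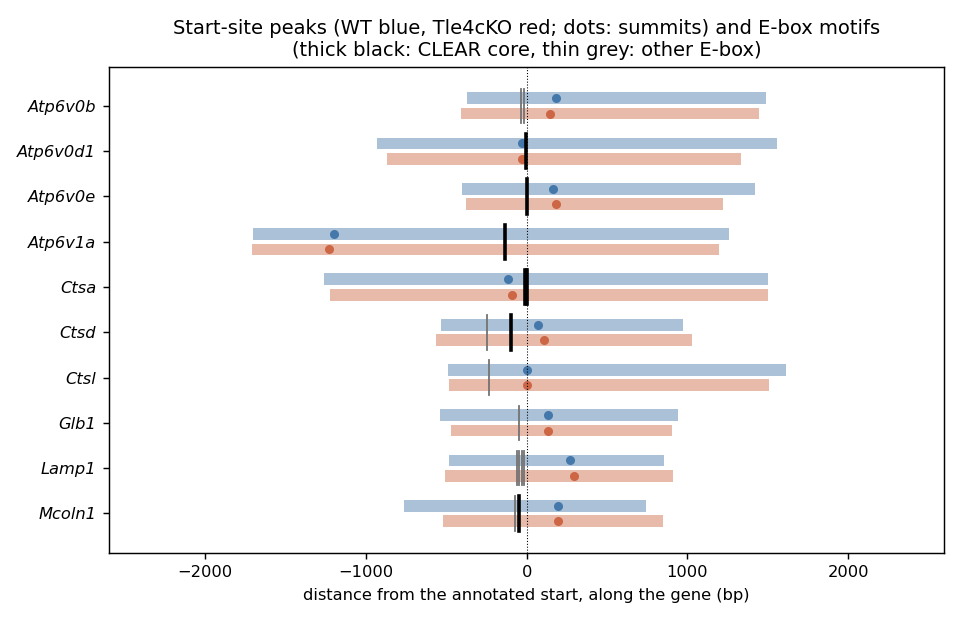
Start-site peaks of the 10 members whose promoter window holds an E-box, drawn along the gene from the annotated start in bp, with WT peaks in blue, Tle4cKO peaks in red, dots at the summits, thick black lines at CLEAR cores and thin grey lines at other E-boxes. Every motif lies within the peak of both lists, and the Atp6v1a summits, 1066 and 1095 bp from the core, lie farthest from their motif.

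Other motifs were near their general frequency or above it. The PU.1 core AGGAAGT was in 12.8% of the members' windows and 9.35% of all, AP-1 sites (TGANTCA) in 10.3% and 7.81%, and the TCF/LEF core CTTTGA in 17.9% and 16.0%. The RUNX core TGTGGT was in 25.6% and 16.8%, and the M-box TCATGTG in 12.8% and 3.77%, each searched on both strands. The PU.1 core was in windows of Atp6v1a, Ctsc, Ctss, Gusb and Tfec. It is shown for 2 of these without a CLEAR core, picked as prominent in myeloid cells. In Tfec it lies 71 bases before the start, and in Ctss across it. In Ctss it is on the other strand, so its reverse complement is capitalised.
Tfec (chr6:16898466-16898552, minus strand): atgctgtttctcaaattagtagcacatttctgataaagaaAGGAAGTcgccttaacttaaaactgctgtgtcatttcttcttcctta
Ctss (chr3:95526744-95526815, plus strand): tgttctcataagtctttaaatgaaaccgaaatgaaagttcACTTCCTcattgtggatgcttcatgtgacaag

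Every member with a promoter window had such a window met by a peak in both libraries. At Ctsk the Tle4cKO peak ended before the start itself, and a further window of Mitf and of Tfeb met no peak in either list. All 31 members with a promoter window had a start-site peak in WT and in Tle4cKO, whereas 61.2% of 17492 protein-coding genes had one in WT and 60.4% in Tle4cKO. Taking the strongest start-site peak of each member, WT pileups ran from 22 to 217 with a median of 173, and Tle4cKO pileups from 28 to 185 with a median of 146. Over all protein-coding genes with such a peak the medians were 144 and 114. In 29 of the 31 members the WT pileup was at least 100, and these peaks ranked at the 89.1st percentile of the WT list or higher. The exceptions were Tfec and Ctsk.

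Between genotypes these promoters differed little beyond the general difference of the libraries. The raw Tle4cKO to WT ratio of the 31 pairs had a median of 0.833, beside 0.791 over 9834 start-site pairs of protein-coding genes, and WT was higher in 30. The relative log2 ratios ran from -0.18 to 0.86 with a median of 0.03, and 19 of 31 were above 0. Over all protein-coding start-site pairs the median was 0.01 and 52.0% were above 0. The SD was 0.18 among the members and 0.18 among all. The exact 95% counting interval of the ratio, which covers counting error only, lay apart from the ratio of pairs of like pileup at 1 member, Ctsk, beside 0.63% of all start-site pairs. Their median width was 1599 bp in either list, and 22 of 31 were wider in WT.

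**Figure D2:**
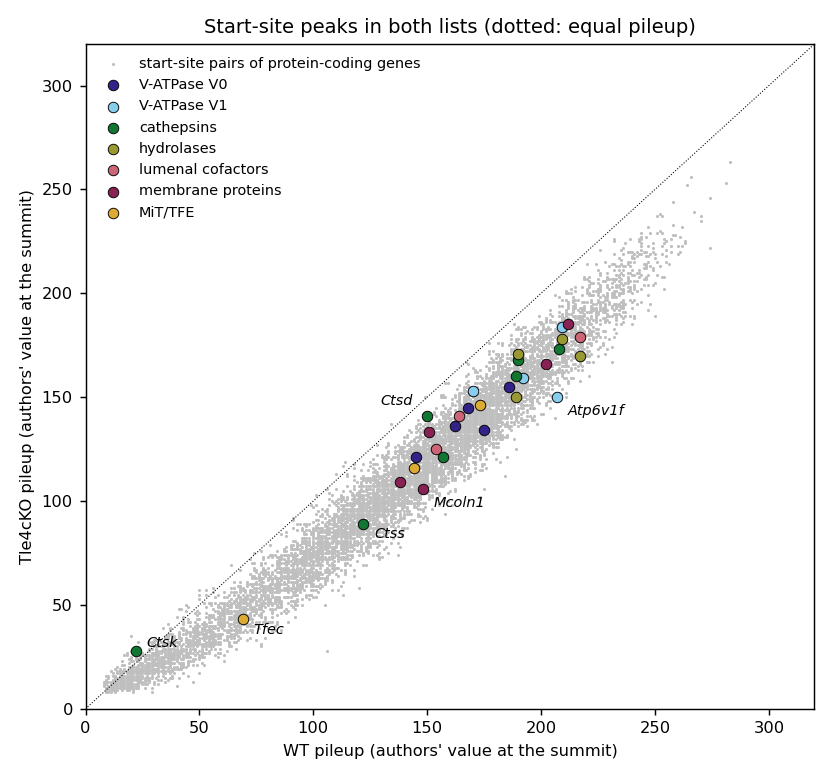
Pileup of start-site peaks in WT (x axis) and Tle4cKO (y axis), both the authors' values at the summit, with members coloured by group and start-site pairs of protein-coding genes in grey. The members lie within the grey cloud, below the line of equal pileup except Ctsk, at 22 in WT and 28 in Tle4cKO.

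In the V-ATPase, the promoters with the lowest and highest relative ratio belonged to V1 genes. Atp6v1f (chromosome 6, 29467783 to 29470509), which encodes a small V1 subunit, stood at 207 in WT at its start and at 150 in Tle4cKO. Its ratio was 0.725 (95% interval 0.583 to 0.898), against 0.823 for pairs of like pileup, which lies within that interval. Atp6v1e1, whose product is part of the peripheral stalks, had 170 and 153, a ratio of 0.9 (0.719 to 1.13) against 0.807. In the channel sector, Atp6v0d1 had 175 and 134, Atp6v0c, the proteolipid gene, 168 and 145, and Atp6v0b, another proteolipid gene, 186 and 155. The relative log2 ratios of these 3 were -0.08, 0.10 and 0.02. Of the genes without a promoter window, Atp6v1b2, Atp6v1c1, Atp6v1g1 and Atp6v1h had a peak at 1 annotated gene end of at least 124 in WT and 108 in Tle4cKO. Atp6v0d2, an isoform gene best known from osteoclasts and macrophages, had none in either list at 1 end and 9 and 11 at the other. Its strongest peak lay inside the gene instead, at chromosome 4, 19894096 to 19896135, with 160 and 120.

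The cathepsin start-site pileups ran from 22 at Ctsk to 208 at Ctsz in WT. Ctsz had a start-site peak 4402 bp wide in WT and 4074 bp wide in Tle4cKO, with pileups of 208 and 173. Ctsl, the gene of a cysteine protease, had 190 and 168, and Ctsc, whose product activates granule proteases, 189 and 160. Ctsd encodes an aspartic protease. Its pileups, 150 and 141, were nearly equal, with a ratio of 0.94 (0.742 to 1.19) against 0.797 for pairs of like pileup and a relative log2 ratio of 0.24. Ctss, a protease that trims the invariant chain of MHC class II, had 122 and 89, with a relative log2 ratio of -0.05. Ctsk is known above all as the collagenase of osteoclasts. Its start-site peak was the 1 that was higher in Tle4cKO in raw pileup, 28 against 22, a ratio of 1.27 (0.702 to 2.33) beside 0.7 for pairs of like pileup. The interval thus barely cleared that reference. The Tle4cKO peak overlapped the promoter window but ended at 95499146, before the annotated start at 95499210. Its summit lay at -487 bp from the start, against -158 bp in WT, so the 2 values belong to different summits.

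Hydrolase, cofactor and membrane protein genes had start-site pileups of 138 to 217 in WT. Glb1, the beta-galactosidase gene, and Npc2, which encodes a cholesterol-binding protein, shared the highest WT value of 217, with 170 and 179 in Tle4cKO. Hexa, a subunit of beta-hexosaminidase, had 209 and 178, and Lipa, the acid lipase that frees cholesterol from its esters, had 190 and 171. Cd68, a macrophage marker, had 202 and 166, and Grn, the progranulin gene, had 154 and 125. Mcoln1, which encodes a lysosomal calcium channel, had 148 and 106. Its ratio of 0.716 (0.553 to 0.925) contained the 0.771 of pairs of like pileup, and so did the interval of each gene in this paragraph.

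Of the MiT/TFE genes, Mitf and Tfeb were open at some of their annotated starts and not at others. Mitf (chromosome 6, 97807002 to 98021360) has 3 starts in the table. The first, at 97807058, had pileups of 173 and 146. The start at 97929817 had 22 and 16, and the start at 97991783 lay in no peak of either list. Tfeb (chromosome 17, 47737037 to 47792416) also has 3, of which the first and second share a peak that spans 2939 bp in the WT list, and 2942 bp in the other, with pileups of 144 and 116. Its start at 47785744 lay in no peak. Tfec (chromosome 6, 16830927 to 16898464), whose expression is largely restricted to myeloid cells, had 69 and 43 at its start. Its ratio of 0.623 (0.416 to 0.925) was the lowest of the 31 start sites, and 0.692, the ratio of pairs of like pileup, lay within the interval.

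Peaks found in 1 list only were counted next. Of the members' WT peaks 86 of 415 were WT-only, 20.7% (95% Wilson interval 17.1% to 24.9%), beside 27.1% of all WT peaks. Of their Tle4cKO peaks 63 of 402 were Tle4cKO-only, 15.7% (12.4% to 19.5%), beside 23.5% of all. Within 10 kb of any protein-coding gene the shares were 25.9% and 21.3%. The members held more strong peaks than the lists as a whole, and strong peaks are rarely in 1 list only. At or above the upper quartile of their own list, which is 67 in WT and 47 in Tle4cKO, lay 36.6% of the members' WT peaks and 39.1% of their Tle4cKO peaks, against 25.2% and 25.5% overall.

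Within classes of like pileup the members' WT-only shares lay near those of all peaks. Below the lower quartile of 14, 43 of 61 of the members' WT peaks were WT-only (70.5%, 58.1% to 80.4%), beside 74.3% of all. From 14 to below 28 the shares were 29.4% and 29.1%, from 28 to below 67 they were 11.0% (6.25% to 18.6%) and 7.44%, and from 67 upwards 1.32% (0.362% to 4.67%) and 0.518%. In the Tle4cKO list the lowest class, below 11, held 20 Tle4cKO-only peaks of 35 (57.1%, 40.9% to 72.0%), beside 74.9% of all. From 11 to below 20 the shares were 28.4% and 25.9%. From 20 to below 47, 11 of 101 of the members' peaks were Tle4cKO-only (10.9%, 6.19% to 18.5%), beside 3.22% of all peaks and 3.6% of those near protein-coding genes. This was, together with the lowest Tle4cKO class, 1 of the 2 classes among 8 in which the counting interval did not contain the share of all peaks. Of those 11 peaks 6 were at cathepsin genes, 2 at Ctsb, 2 at Ctsh and 1 each at Ctsc and Ctsz. The others were at Atp6v1g1, Atp6v1h, Gusb, Scarb2 and Mitf, and 2 of the 11, at Ctsc and Atp6v1g1, lay within 500 bp of a WT peak. Both peaks at Ctsb overlap the neighbouring gene Fdft1, and the peak at Ctsz lies inside Nelfcd. The cathepsins held 86 of the members' 402 Tle4cKO peaks.

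By gene, the WT-only peaks outnumbered the Tle4cKO-only ones at 17 of 38 members, beside 39.4% of protein-coding genes with a peak. The reverse held at 11 members, beside 27.6% of those genes, and 10 members were balanced. No list-only peak was found at 5 members, Atp6v0e, Hexa, Grn, Npc2 and Cd68, beside 21.2% of those genes. None of the list-only peaks overlapped a promoter window of a member. Of the WT-only peaks 54 lay in a gene span and 32 in the flanks, and of the Tle4cKO-only peaks 41 and 22. They were narrow, with median widths of 290.5 bp and 272 bp, and weak, with median pileups of 13.5 and 13.

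**Figure D3:**
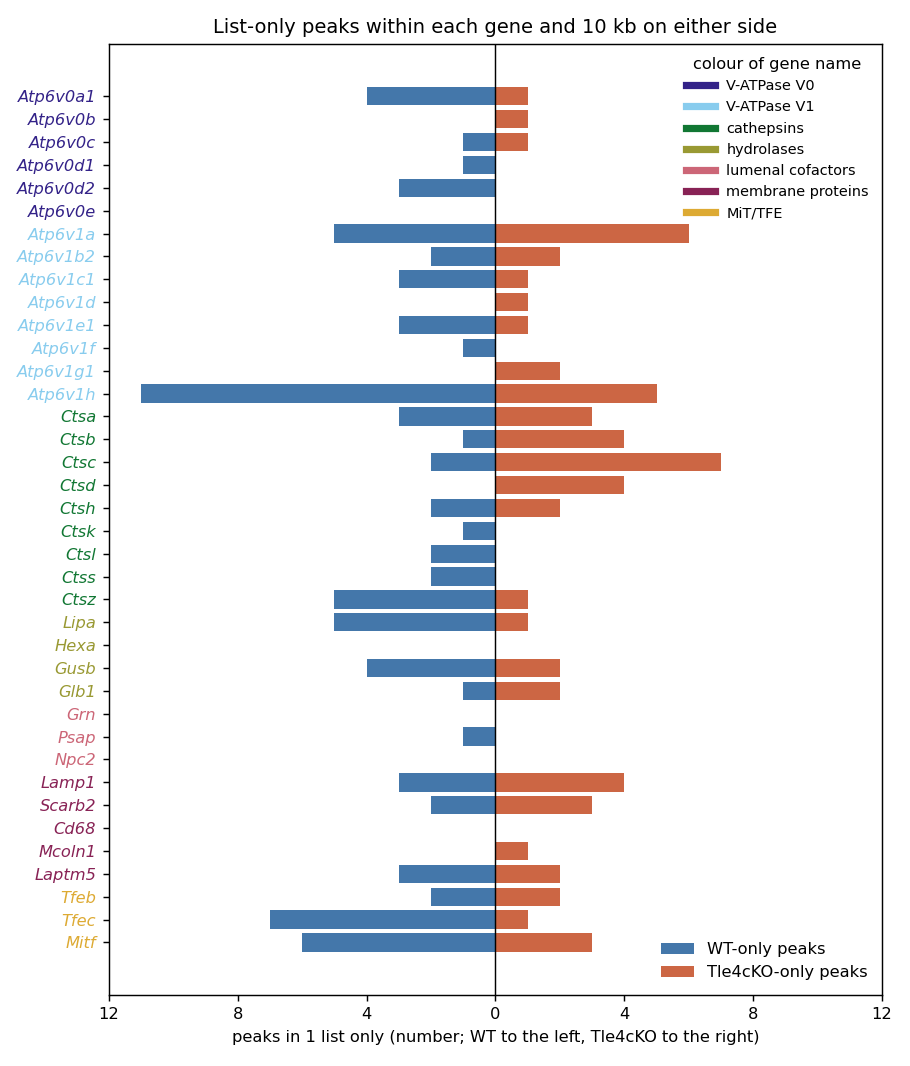
Number of WT-only (left, blue) and Tle4cKO-only peaks (right, red) within each member gene and 10 kb on either side, with gene names coloured by group. Atp6v1h has the most WT-only peaks, 11, and Ctsc the most Tle4cKO-only peaks, 7.

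Among the V0 genes the WT list held 9 list-only peaks of 50, and the Tle4cKO list 3 of 47. These are 18.0% (9.77% to 30.8%) and 6.38% (2.19% to 17.2%), beside 27.1% of all WT and 23.5% of all Tle4cKO peaks. The strongest WT-only peak of the whole list lay inside Atp6v0c (chromosome 17, 24163865 to 24169678), at 24167162 to 24167372. It was 211 bp wide with a pileup of 110, and the nearest Tle4cKO peak was 1139 bp away. Atp6v0a1, which encodes an isoform of the large V0 subunit, held 4 WT-only peaks, of pileup 9, 9, 24 and 24, against 1 of 8 in the Tle4cKO list. Atp6v0d2 held 3 in WT, at 13, 14 and 45, and none in Tle4cKO. Atp6v0d1 held 1 WT-only peak, of 13. Atp6v0b held 1 Tle4cKO-only peak, of 17, which lies inside the neighbouring gene Ipo13.

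The V1 genes held 25 list-only peaks among 98 in WT and 18 among 92 in Tle4cKO. Their shares were 25.5% and 19.6%, beside 27.1% and 23.5% of all peaks. Atp6v1h, a regulatory subunit gene with a span of 80.2 kb, held 11 WT-only peaks, none above a pileup of 12, while its 5 in Tle4cKO stood at 10, 10, 10, 11 and 27. Atp6v1a, which encodes the catalytic subunit, was close to balanced, with 5 and 6. Atp6v1e1 held a WT-only peak of 49 that lay 169 bp from a Tle4cKO peak. Atp6v1g1 held a Tle4cKO-only peak of 44, 221 bp wide and 106 bp from a WT peak, inside Tmem268. Atp6v1c1 held 3 and 1, Atp6v1b2 held 2 and 2, and Atp6v1f and Atp6v1d each held 1, in WT and in Tle4cKO respectively.

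At the cathepsins 21 of 86 Tle4cKO peaks were in that list alone, 24.4% (16.6% to 34.5%), near the 23.5% of all Tle4cKO peaks, and 18 of 82 WT peaks, 22.0% (14.4% to 32.1%), beside 27.1% of all. Ctsd (chromosome 7, 142375910 to 142387827) held 4 peaks of the Tle4cKO list alone, of pileup 10, 14, 15 and 19, and none of the WT list alone. Their summits lay 8810 to 14485 bp downstream of the start, 2 inside the gene and 2 beyond its end, and the strongest overlapped the start of Ifitm10 and lay 110 bp from a WT peak. Ctsc (chromosome 7, 88278024 to 88315861) held 7 in Tle4cKO, all inside the gene, and 2 in WT. The strongest, with a pileup of 39, lay 1399 bp downstream of the start and 348 bp from a WT peak, and the other 6 had pileups of 10 to 16. Ctsb held 4 in Tle4cKO, of 15, 16, 23 and 25, and 1 in WT, of 20. Those of 16, 23 and 25 overlap Fdft1. Ctsa held 3 and 3, all of them overlapping the neighbouring gene Pltp, and Ctsh 2 and 2. Ctsl and Ctss each held 2 in WT and none in Tle4cKO, and Ctsk 1 and none. Ctsz also leaned to WT, with 5 WT-only peaks of 19 to 29 and 1 Tle4cKO-only peak of 22. All but 1 of these 6 lay in the flank inside Nelfcd. Ctsk and Ctss lie next to each other and share 2 peaks of each list, which were counted once in the group.

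Of the hydrolases, Lipa (chromosome 19, 34492316 to 34527474) held 5 WT-only peaks and 1 Tle4cKO-only peak of 11. The strongest, with a pileup of 84 at 34524790 to 34524997, was 208 bp wide, lay 2602 bp downstream of the start and was 1167 bp from the nearest Tle4cKO peak. The other 4 had pileups of 17 to 21. Gusb, the beta-glucuronidase gene, held 4 WT-only peaks of 9 to 12 and Tle4cKO-only peaks of 7 and 24, and Glb1 held 1 and 2. The shares for all hydrolases were 27.0% and 15.6%, beside 27.1% and 23.5% of all peaks. The cofactor genes held 1 WT-only peak among 29 (3.45%, 0.611% to 17.2%), of pileup 55, in the flank of Psap inside Cdh23. None of their 29 Tle4cKO peaks was in that list only. Of their peaks 75.9% in either list were at or above its upper quartile of pileup. Membrane protein genes held 8 of 51 in WT (15.7%) and 10 of 54 in Tle4cKO (18.5%). Of these, 3 and 4 were at Lamp1, 2 and 3 at Scarb2, 3 and 2 at Laptm5 and 0 and 1 at Mcoln1.

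At the MiT/TFE genes 15 of the 68 peaks in the WT list were found there only, against 6 of 62 in the Tle4cKO list. These are 22.1% (13.8% to 33.3%) and 9.68% (4.51% to 19.5%), beside 27.1% of all WT and 23.5% of all Tle4cKO peaks. Tfec held 7 in WT alone, of pileup 9 to 15, and 1 in Tle4cKO alone, of 17, and Mitf held 6 and 3. At Tfeb the count was 2 and 2. The stronger of its Tle4cKO-only peaks was the single one of the 63 above the upper quartile, with a pileup of 56 and a width of 227 bp, at 47770137 to 47770363. It lay 131 bp from a WT peak of pileup 171. Strong list-only peaks of all 38 members were thus 2 in WT, at Atp6v0c and Lipa, and 1 in Tle4cKO, beside 0.518% of strong WT peaks and 0.313% of strong Tle4cKO peaks overall.

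**Figure D4:**
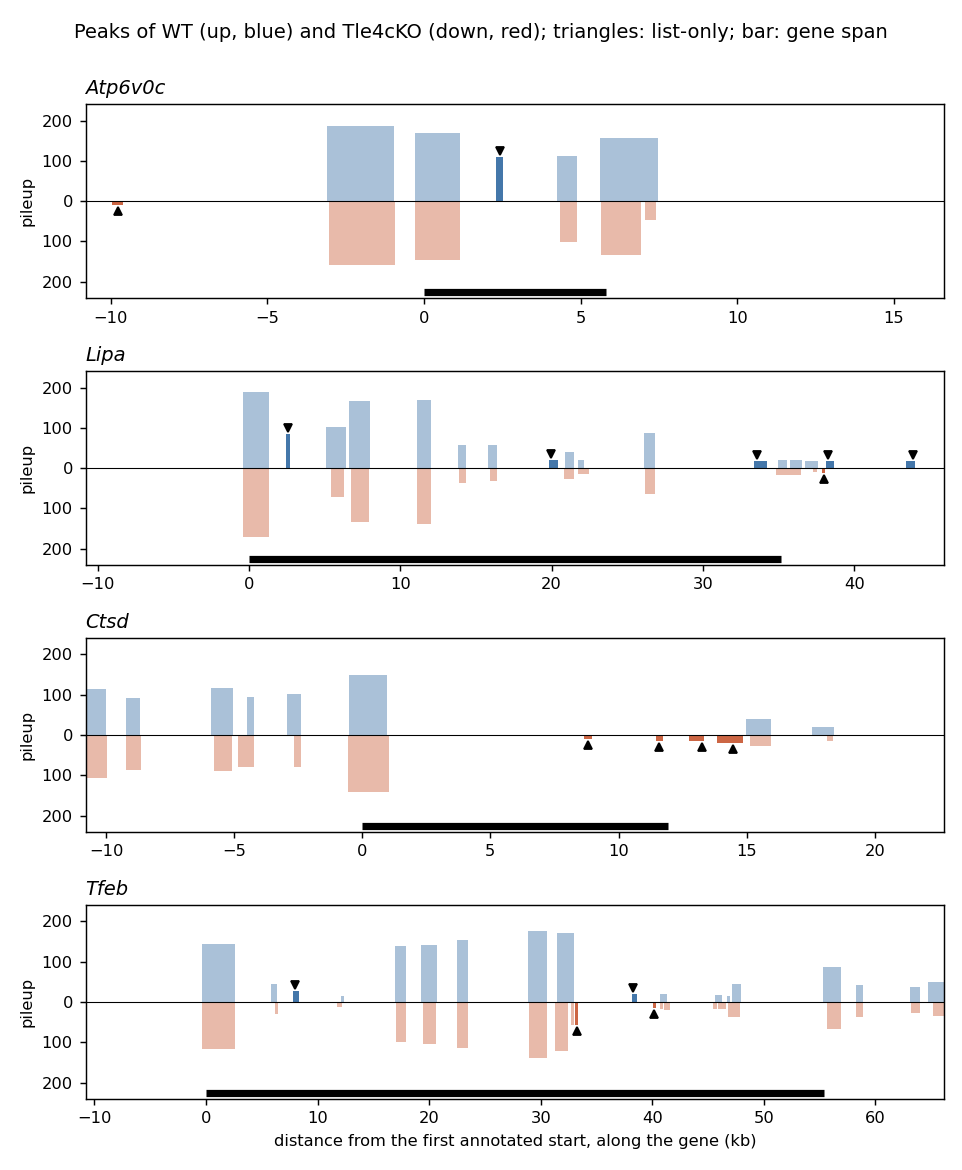
Peaks at Atp6v0c, Lipa, Ctsd and Tfeb by distance from the first annotated start along the gene (kb) and by pileup, WT upwards in blue and Tle4cKO downwards in red, with list-only peaks in full colour under triangles and the gene span as a black bar. The WT-only peaks of 110 at Atp6v0c and 84 at Lipa stand apart from any Tle4cKO peak, and the Tle4cKO-only peak of 56 at Tfeb lies beside a shared peak.

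Peaks present in both lists were compared in 320 pairs of each other's highest overlapping peak. Raw pileup was higher in WT in 290 pairs, higher in Tle4cKO in 23 and equal in 7. The median ratio was 0.767 beside 0.741 over all 92335 pairs. Relative to pairs of like pileup the median log2 ratio was 0.05, with an SD of 0.29 among the members' pairs and 0.31 among all, and 59.1% were above 0 beside 48.4% of all pairs. At least 1.5-fold higher in Tle4cKO were 15 of 320 pairs, beside 3.88% of all, and at least 1.5-fold lower were 8, beside 3.32% of all. The counting interval lay wholly above the reference at 4 pairs, beside 0.696% of all, and wholly below it at 4, beside 0.632% of all. Of the pairs past 1.5-fold, 7 of 23 were apart by their interval, and their median WT pileup was 22 against 59.5 over all the members' pairs.

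By group the median relative log2 ratio was 0.08 for V0, 0.07 for V1, 0.05 for cathepsins, 0.06 for hydrolases, 0.03 for cofactors, 0.04 for membrane proteins and -0.06 for MiT/TFE genes. The SD of the pairs within a group was 0.24 to 0.31, and differences between the groups were not tested. The share of pairs above 0 was 65.8% in the V-ATPase, 64.3% in membrane proteins, 61.5% in hydrolases and 61.3% in cathepsins. It was 55.6% in cofactors and 38.5% in MiT/TFE genes. Members' pairs with a WT pileup of at least 100 had a median of 0.02, beside -0.01 over all such pairs. Members' pairs below that pileup had a median of 0.07. Of the 37 members with at least 3 pairs, 29 had a median above 0, beside 50.9% of protein-coding genes with as many pairs. Widths did not set the list apart. Paired peaks had median widths of 825 and 746 bp in the WT and Tle4cKO lists, beside 816 and 728 bp over all pairs, and the median relative log2 width was 0.00.

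**Figure D5:**
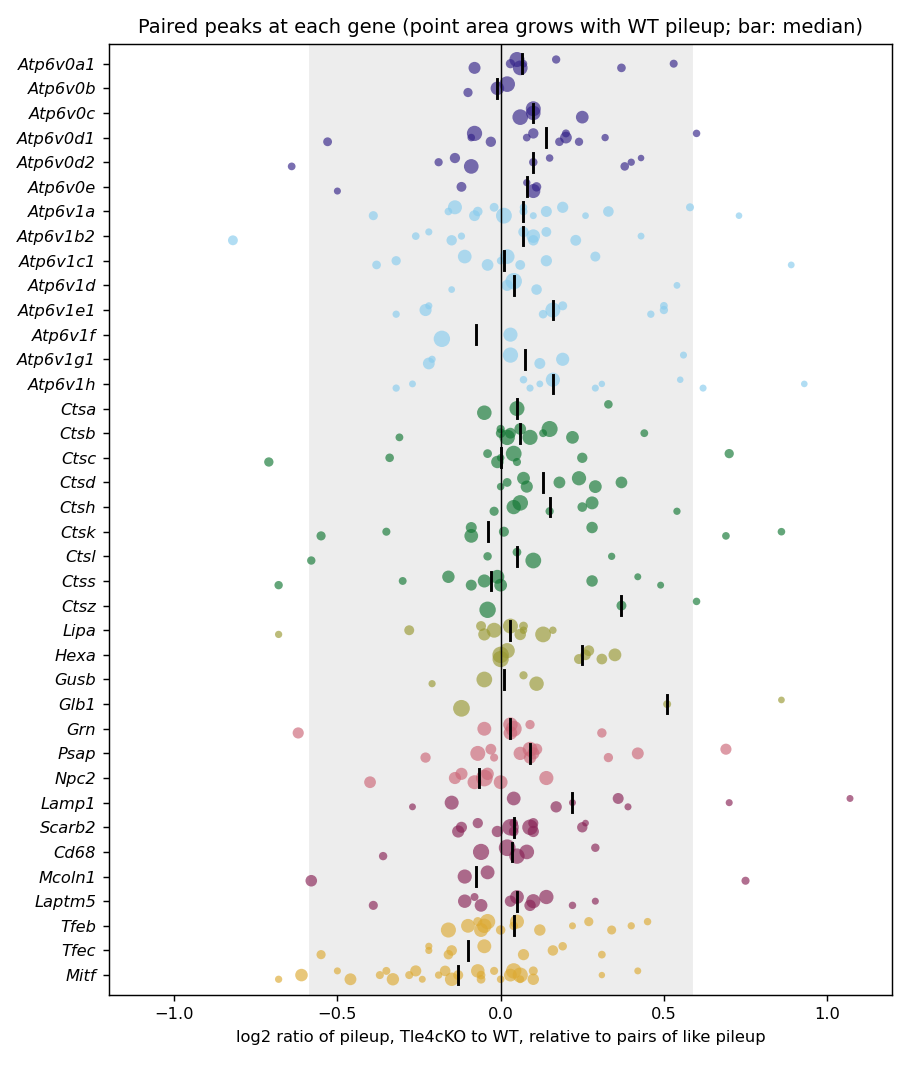
Log2 ratio of pileup, Tle4cKO to WT, relative to pairs of like pileup, for each pair at each member gene, with a black bar at the gene's median, point area growing with WT pileup and 1.5-fold limits shaded grey. Most points beyond the shading are small, and the medians run from -0.13 at Mitf to 0.51 at Glb1.

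The pairs whose counting interval lay apart from that reference pointed both ways. Besides the start of Ctsk, 3 were higher in Tle4cKO. In Psap, the gene of the precursor of the saposins, the pair at chromosome 10, 60286465 to 60288284, had 80 in WT and 94 in Tle4cKO. Its ratio was 1.18 (0.863 to 1.6) against 0.731 for pairs of like pileup, and the WT and Tle4cKO peaks were 1820 and 1876 bp wide. In Ctsc the pair at 88284816 to 88286091, 7297 bp downstream of the start, had 47 and 53, a ratio of 1.13 (0.747 to 1.71) against 0.695. At Lamp1 the pair with the highest relative log2 ratio of the list, 1.07, had pileups of 14 and 21 and lay in the flank inside Grtp1.

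In the other direction, a pair inside Mitf at 97813868 to 97814661 had 110 and 52, a ratio of 0.473 (0.333 to 0.663) against 0.721, and its Tle4cKO peak was 241 bp wide against 794 bp in WT. The pair near Grn at chromosome 11, 102440049 to 102440894, in the flank inside Fam171a2, had 81 and 37, a ratio of 0.457 (0.301 to 0.682) against 0.7. At Atp6v1b2, the gene of a V1 subunit that shares ATP binding with V1A, a pair in the flank had 57 and 22, a ratio of 0.386 (0.225 to 0.641) against 0.681. A pair in the flank of Mcoln1 at the start of Zfp358 had 89 and 42 and did not reach 1.5-fold, with 0.472 (0.319 to 0.688) against 0.704. Of these 4 pairs 3 thus lay in the flanks of members, 2 of them within neighbouring genes. The remaining pairs at least 1.5-fold higher in Tle4cKO were weak, with WT pileups of 10 to 29, and lay at Atp6v0d1, Atp6v1a, Atp6v1c1, Atp6v1h, Ctsk, Ctsz, Glb1, Lamp1 and Mcoln1. The remaining lower pairs, with WT pileups of 18 to 48, lay at Atp6v0d2, Ctsc, Ctss, Lipa and Mitf. Ctsc thus held pairs on both sides, with 48 and 20 in its flank besides the higher pair inside the gene.

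Among genes with at least 8 pairs, Mitf had the lowest and Hexa the highest median relative log2 ratio. Mitf had a median of -0.13 over 27 pairs, of which 8 were above 0, while its start-site pair stood at 0.06 and its strongest pair, 180 and 152 at 97820130 to 97821159, at 0.04. Hexa had a median of 0.25 over 8 pairs, of which 6 were above 0. Its strongest pairs, 209 and 178 at the start and 203 and 173 inside the gene, stood at 0, and the pairs of lower pileup, 116 and 113, 73 and 62, 72 and 63, 70 and 59 and 59 and 48, at 0.24 to 0.35. By the number of pairs on 1 side, others leaned further: Ctsd had 7 of 8 pairs above 0 and none below, with a median of 0.13, Atp6v0a1 7 of 8, and Atp6v1h 9 of 11. Larger medians at Glb1, 0.51, and Ctsz, 0.37, rest on 3 pairs each. At Npc2 the median was -0.07, with 2 of 8 pairs above 0.

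The same values were taken at other genes of the pathway. Of 11 other V-ATPase genes, 4 of the 10 with a promoter window had a start-site peak in both lists. Tcirg1, which encodes the V0 isoform of osteoclasts and other myeloid cells, had 163 and 140, and the accessory genes Atp6ap1 and Atp6ap2 had 151 and 126 and 165 and 135. No start-site peak was called in either list at the isoform genes Atp6v0a4, Atp6v0e2, Atp6v1b1, Atp6v1c2, Atp6v1e2 and Atp6v1g3. WT-only peaks were the more numerous at 3 of the 11 genes and Tle4cKO-only peaks at 3, with 6 against 1 at Atp6ap2 and 1 against 4 at Atp6v0a2. Of these genes' WT peaks 24.5% were WT-only, and of their Tle4cKO peaks 23.7% were Tle4cKO-only, beside 27.1% and 23.5% of all. Their 40 pairs had a median relative log2 ratio of 0.00, and 42.5% were above 0, beside the 65.8% of the V-ATPase members. Among 29 other lysosomal protein genes all 21 with a window had a start-site peak in both, with pileups of 73 to 209 in WT and 42 to 194 in Tle4cKO. Their 185 pairs had a median relative log2 ratio of 0.01, and WT-only peaks were the more numerous at 13 genes, Tle4cKO-only peaks at 8. The list-only shares of these genes were 19.0% in WT and 15.4% in Tle4cKO. Npc1, the cholesterol exporter, held 2 in WT and 5 in Tle4cKO.

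Genes listed for the control of MiT/TFE factors, by mTORC1 or otherwise, were open at all 13 starts with a window. Their pileups were 80 to 192 in WT and 55 to 184 in Tle4cKO, the highest WT value at Ppp3cb. Tfe3, the fourth family member and also on this list, had 166 and 145. The median relative log2 ratio of the 117 pairs at the 14 genes was 0.08. The WT list held 41 list-only peaks of 159 there (25.8%) and the Tle4cKO list 27 of 152 (17.8%), beside 27.1% and 23.5% of all. Fnip2, a partner of folliculin, held 11 and 4 of them, and Fnip1 held 10 and 4. Fnip2 also supplied 3 of the 4 pairs of this list at least 1.5-fold higher in Tle4cKO, and none was 1.5-fold lower.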

How the data were processed

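For each library the authors deposited a separate peak list with position, width, summit and pileup, per the file headers. The pileup is a signal of at least 7, always a whole number in the deposited values, and widths are in bp, counting both ends. Named without roles in the submitters' processing notes are the build mm10, HOMER 4.7.2, MACS2 2.1.1, cutadapt 1.14, edgeR 3.28.1, Bowtie2 2.2.5 and featureCounts 1.5.0. Not given in the sources used here are thresholds, read totals, read shifting, duplicate handling and any scaling, so depth is unknown.

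From these lists, with Python 3.11.15, pandas 2.3.3 and scipy 1.17.1, peaks overlapping by at least 1 bp were counted as shared (checked with bedtools 2.31.1). Reciprocal highest overlapping peaks formed pairs. Their log2 pileup ratio was set relative to the median of 50 bins of summed pileup. Gene spans and promoter windows came from RefSeq GRCm38.p6, the assembly behind mm10. A pileup is a maximum over a peak, so counting intervals of ratios (exact Clopper-Pearson) are approximate. With 1 library per genotype no test was made. Alternatives varied the window, the overlap that counts as shared, the fold limit, the reference level and the pileup minimum. Members, groups, motifs and other lists were chosen with earlier results of these data known.

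Every member is named. Values are given for members with a strong list-only peak, for up to 3 members per group by list-only difference or median ratio, for pairs past 1.5-fold, and for the strongest pairs; some of the last are given by range. The procedure was first run on a copy of the WT list with thinned pileups, unchanged positions and planted changes. It recovered 200 of 200 planted peaks of either list, which the unchanged positions made certain. Of 200 pairs raised 2-fold 197 passed 1.5-fold, and of 200 lowered 191. With simulated counting error alone, 12664 of 128137 unchanged pairs also passed 1.5-fold. A single pair past that limit therefore does not show a change. Thinned peaks stayed in the copy even below 7, the lowest deposited pileup, so its share is not an estimate for the real pairs. Of all real pairs, 3.88% were at least 1.5-fold higher in Tle4cKO and 3.32% at least 1.5-fold lower.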

Additional observations from a re-analysis of the deposited data

How the results depend on the processing

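With 1 library per genotype, nothing could be left out in turn, and all values describe these libraries. Of 47 alternative values 33 stayed within 1.5 times the reported count, or within the reported median's binomial interval over pairs, among them all 21 of the group medians. That interval is wide for small groups: relative to the median of all pairs, the medians of hydrolases, membrane proteins and cofactors were 0.12, 0.10 and 0.07, against the reported 0.06, 0.04 and 0.03. With the gene span alone the list-only peaks were 54 in WT and 41 in Tle4cKO, and 4 pairs were at least 1.5-fold lower. With 50 kb on either side these were 162 and 132, with 25 pairs higher and 17 lower and a median relative log2 ratio of 0.02. Strong peaks alone left 2 WT-only and 1 Tle4cKO-only. Pairs with a summed pileup of at least 60 left 3 higher and 4 lower, and a limit of 1.3-fold gave 36 and 20. These alternatives change how many peaks enter, or the limit itself, by construction. Depth is unknown, and a weak peak found in 1 list may lie under the calling limit in the other. No paired analysis was possible because each genotype has 1 library.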

Other observations

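Autophagy genes, whose products deliver cargo to the lysosome, were open at 8 of 9 starts with a promoter window in both lists. Sqstm1, the gene of the cargo receptor p62, had start-site pileups of 204 in WT and 190 in Tle4cKO, and Wipi1 had 228 and 206. List-only peaks at the 11 genes were 34 of 160 in WT (21.2%) and 26 of 157 in Tle4cKO (16.6%). Over all peaks the shares were 27.1% and 23.5%. The median relative log2 ratio of the genes' 125 pairs was 0.01. Atg5 held 5 WT-only and 0 Tle4cKO-only peaks, Atg7 held 5 and 10, and Uvrag held 19 and 13.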
